A study of Mus musculus with 96 samples.

Results

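The rows described here are the 3 stem-loops MI0000702, MI0000741 and MI0000617, of 1187 stem-loops in a table of cortical small RNA. They were chosen by accession as mouse mir-219a-1, mir-219a-2 and mir-338, by a rule that uses no measured value. All 3 passed the low-count filter in each comparison below. The series comprises 96 libraries, one per mouse, in 12 groups of 8 (4 females and 4 males each). Heterozygous mice had an intact mouse *Htt* gene beside an engineered copy, into which human exon sequence with 20, 50, 92 or 140 CAG repeats was knocked in (denoted Q20, Q50, Q92 and Q140). The other groups were wild-type (WT) mice of the Q20 and of the Q50 line, and each was sampled at 6 and at 10 months of age. The labelled strain was C57BL/6 throughout, and the knock-in allele is expressed from the endogenous mouse locus in all cells that use it. Q20 and WT mice served as controls, as in the study. According to the labels Q20 and Q50 mice lived with WT mice, whereas Q92 and Q140 mice lived with their own genotype, while the study's methods describe mixed cages for every line. Neither Q92 nor Q140 had WT littermates here, so that line, cage and genotype cannot be told apart for them.

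Library totals ranged from 3698376 to 12142170 estimated counts. A screen of each library's distance from the others removed 12 libraries from the model fits (6 at each age), leaving 84, with 20 controls at 6 months and 23 at 10 months; Q92 at 10 months kept 5 of 8. All 8 libraries of each group were used for the levels. The descriptions carry a field with values L1, L2 and L3, whose meaning is not stated. It entered the fits as a covariate, except in the fit by age in controls. Markers of other cortical cell types could not be read, because the stem-loops are given by accession alone, so that the cell content of the libraries was not tested.

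microRNAs are short RNAs of about the length of a small interfering RNA, cut from a stem-loop precursor. They guide Argonaute proteins to messenger RNAs that pair with the seed, the bases near the 5′ end, and so lower their output. In the brain, miR-219 and miR-338 are known from oligodendrocytes, the cells that form myelin, where they repress factors that keep precursor cells from differentiating and are needed for normal myelination. The product cut from the 5′ side of the stem, miR-219a-5p, is encoded at more than one place in the mouse genome.

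The mature and stem-loop sequences of mir-219a are shown because the product shared by the 2 loci decides how their counts can be read. Sequences and positions are from RefSeq on GRCm38.p6, the assembly also called mm10, and all 3 named loci matched a RefSeq entry. The 3′ product of mir-219a-2 is miR-219a-2-3p. In the mature sequences the capitals mark the seed (bases 2 to 8). In the stem-loops they mark mature products, and in mir-219a-2 only miR-219a-5p is marked.
miR-219a-5p: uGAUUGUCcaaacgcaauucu
miR-219a-1-3p: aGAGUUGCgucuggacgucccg
mir-219a-1 stem-loop: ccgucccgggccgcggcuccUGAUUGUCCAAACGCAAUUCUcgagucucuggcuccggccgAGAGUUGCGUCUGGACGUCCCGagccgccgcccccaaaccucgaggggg
mir-219a-2 stem-loop: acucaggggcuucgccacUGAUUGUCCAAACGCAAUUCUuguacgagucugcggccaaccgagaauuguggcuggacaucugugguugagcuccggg
miR-338-3p: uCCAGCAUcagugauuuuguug

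The mir-219a-1 stem-loop lies on the minus strand at chr17:34024983-34025092, where it overlaps the long noncoding RNA Gm26940 on the same strand and the stem-loop Mir219c on the opposite strand, 303 bases from *Ring1*, which encodes a Polycomb subunit. The mir-219a-2 stem-loop lies on the minus strand at chr2:29845631-29845727, opposite Mir219b and 629 bases from *Urm1*. The locus named mir-338 lies on the minus strand at chr11:120014765-120014862, in an intron of *Aatk* and opposite Mir3065. The longest run of bases common to both mir-219a stem-loops was 22, which holds the whole of miR-219a-5p. The seeds of miR-219a-5p, miR-219a-1-3p and miR-338-3p were each found in 1 of 1679 RefSeq mature sequences.

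The names were then checked against the values. The deposited FPKM divides the count by a stem-loop length, and the length so implied was 110 for MI0000702 and 97 for MI0000741, the lengths of the RefSeq entries for mir-219a-1 and mir-219a-2. Estimated counts of both rows were fractional in all 96 libraries, and their sum was whole (within 0.01) in 96 of 96, with a largest deviation of 0.0003. The next best partner row gave whole sums with MI0000702 in 7 libraries only. Reads were thus divided between the mir-219a rows, and the values of either row alone are uncertain to that extent. Both rows are called here by their names.

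**Figure D1:**
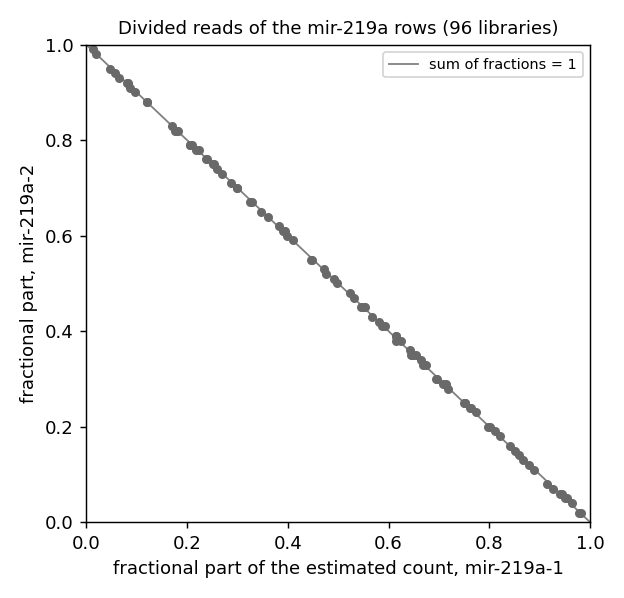
Fractional part of the estimated count of mir-219a-1 (x axis) and of mir-219a-2 (y axis), with 1 point for each of 96 libraries and a grey line where both fractions add up to 1. All points lie on the line, as whole sums in 96 of 96 libraries require.

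The name mir-338 did not pass the same check. The length implied for MI0000617 was 97, and the RefSeq entry for Mir338 has 98 bases. MI0000617 was fractional in 11 libraries, the same 11 in which the row MI0000550 was fractional, and their sums were whole in 11 of 11. The length implied for MI0000550 was 99. No RefSeq stem-loop of that length (7 entries) shared a run of more than 9 bases with Mir338, and the longest run that Mir338 shared with any of 1004 other stem-loops was 13 bases. Among the 98 pairs of RefSeq stem-loops with 97 and 99 bases, Mir148b and Mir148a had the longest common run (15 bases, the next 10), but no table used here pairs accessions with names, so that the identity of the row was not settled. A length of 98 was implied for 18 rows, and which of them holds mir-338 was not determined. The data therefore go against the name mir-338 for this row, which is called MI0000617 from here on, and none of its values is given as a value of miR-338.

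mir-219a-2 held nearly all counts of the mir-219a pair. Its estimated count ranged from 2152 to 7227 over the 96 libraries (median 3859), against 16.7 to 66.8 (median 34.7) for mir-219a-1. The share of mir-219a-1 in the counts of both was 0.885% ± 0.175 (SD, n = 96 libraries; range 0.410 to 1.31%). Per length, mir-219a-2 had a median FPKM of 6263 (4839.8 to 7694) and mir-219a-1 one of 49.2 (22.3 to 78.1), and within a library the ratio was between 85.7 and 276. MI0000617 had a median FPKM of 9037 (7395 to 11955). At the median count, counting error alone gives a coefficient of variation of 17.0% for mir-219a-1 and of 1.61% for mir-219a-2. The coefficient of variation within groups, in CPM, had a median of 19.0% for mir-219a-1, 7.14% for mir-219a-2 and 9.60% for MI0000617, so that the median spread of mir-219a-1 was close to its counting error. For mir-219a-1 it ran from 9.07 to 25.9% over the groups, in some of them under that error. The error holds for whole, independent counts, and these counts were divided between rows.

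The level of mir-219a-2 lay in a narrow band across all 12 groups. CPM are read counts per 1000000 counts of a library, scaled with the trimmed mean of M-values (TMM). At 6 months the lowest, median and highest of 8 libraries in WT mice of the Q20 line were 596, 632 and 752 CPM. They were 585, 669 and 716 CPM in Q20 mice and 633, 662 and 688 CPM in Q92 mice. They were 497, 563 and 605 CPM in WT mice of the Q50 line, 520, 562 and 651 CPM in Q50 mice, and 559, 597 and 646 CPM in Q140 mice. Both groups of the Q50 line were thus the low ones at this age. At 10 months the lowest, median and highest in WT mice were 579, 618 and 688 CPM (Q20 line) and 562, 636 and 699 CPM (Q50 line), and in Q20 mice 517, 609 and 732 CPM. They were 609, 644 and 686 CPM in Q50 mice, 491, 614 and 647 CPM in Q92 mice, and 463, 555 and 578 CPM in Q140 mice. The Q140 group was the low one at this age.

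**Figure D2:**
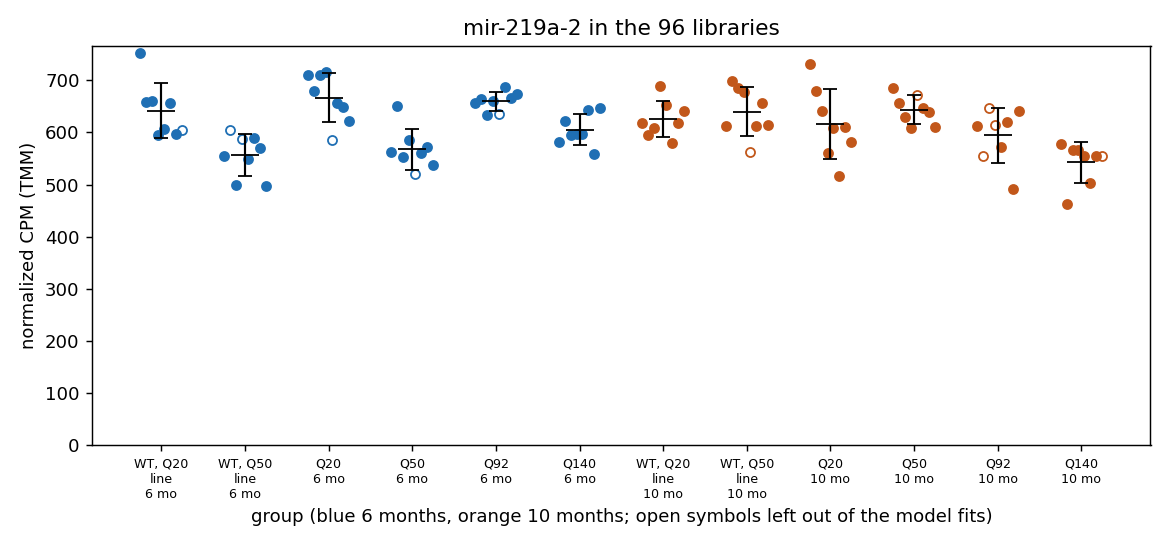
mir-219a-2 in normalized CPM (y axis, from 0) in the 8 libraries of each of the 12 groups (x axis), with the mean and SD as black bars and the libraries left out of the fits as open symbols. Q140 at 10 months (463 to 578 CPM) and both groups of the Q50 line at 6 months (medians 562 and 563 CPM) sit lowest.

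The order of the group means of log2 CPM ran from Q20 at 6 months through Q92 at 6 months, Q50 at 10 months, WT mice of the Q20 line at 6 months, WT mice of the Q50 line at 10 months, WT mice of the Q20 line at 10 months, Q20 at 10 months, Q140 at 6 months, Q92 at 10 months, Q50 at 6 months and WT mice of the Q50 line at 6 months to Q140 at 10 months. The highest group mean (666 ± 47.0 CPM, SD, n = 8) was 1.23 times the lowest (543 ± 39.3 CPM, SD, n = 8). None of the 11 pairs of neighbours in this order differed beyond their spread (two-sided exact permutation tests of 8 against 8 libraries, adjusted p from 0.942 to 0.963). The same held for the 11 neighbour pairs of mir-219a-1 and of MI0000617, and over all 33 pairs each adjusted p was 0.992. Groups were sorted by their own means before neighbours were compared, so that each tested gap was small by construction. These tests concern the order only and do not show that groups farther apart are alike.

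mir-219a-2 was lower in Q140 than in control mice at 10 months. All 8 Q140 libraries (463, 502, 555, 555, 556, 566, 567 and 578 CPM) lay under the median of the 24 controls (616 CPM, range 517 to 732), and 2 of them lay under every control. The groups overlapped, since 3 of 24 controls lay under the highest Q140 library. In the fit of 7 Q140 and 23 control libraries the log2 difference was -0.24 ± 0.05 (SE), a 0.849-fold level, with an adjusted p of 0.0112 (edgeR quasi-likelihood test, Benjamini-Hochberg over 435 stem-loops). It was 1 of 6 stem-loops that fell, where the background was 1.38% lower and 0.23% higher. In bulk tissue, fewer cells of a type and less RNA per cell cannot be told apart.

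The call rested on the Q140 library of female 2, which had the lowest value of all 96 (463 CPM). Without it the log2 difference was -0.18, with an adjusted p of 0.102. Without any 1 of the other 29 libraries, controls included, it stayed between -0.25 and -0.23, with adjusted p from 0.0036 to 0.0361. The libraries with 463 and 502 CPM were the 2 Q140 libraries of L3, where the 8 controls had 579 to 688 CPM. The 6 Q140 libraries of L2 had 555 to 578 CPM, against 517 to 732 CPM in 16 controls of L2. Within L2 alone the log2 difference was -0.18 ± 0.06 (5 against 15 libraries in the fit, adjusted p = 0.397 over all stem-loops). With both mir-219a rows summed it was -0.23 ± 0.05, with an adjusted p of 0.0187, so that the division of reads between the rows did not change the call.

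The association with CAG length showed the same direction at 10 months. With WT mice entered at 7 repeats, mir-219a-2 changed by -0.17 ± 0.04 (SE) on the log2 scale per 100 repeats (42 libraries, adjusted p = 0.0161 over 483 stem-loops, edgeR), 1 of 5 stem-loops that fell with CAG length against a background of 1.04%. This fit shares its Q140 and control libraries with the comparison above. The slope depended on the Q140 mice: without them it was -0.079 ± 0.067, with an adjusted p of 0.862, and without female 2 of that group it was -0.13 ± 0.04, with an adjusted p of 0.111. Leaving out each of the 6 other Q140 libraries gave slopes from -0.18 to -0.17, with adjusted p from 0.017 to 0.0244. Within L2 the slope was -0.12 ± 0.05 (24 libraries) and within L3 it was -0.26 ± 0.07 (16 libraries), with adjusted p of 0.853 and 0.203.

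At 6 months no such slope was measured. The slope of mir-219a-2 was 0.01 ± 0.04 per 100 repeats (42 libraries, 95% interval -0.07 to 0.09), where 12.2% of 444 stem-loops passed in either direction. Q140 differed from controls by -0.03 ± 0.06 (95% interval -0.15 to 0.08) at this age, where 1.86% of 429 stem-loops passed in either direction. These controls pool the low WT mice of the Q50 line (497 to 605 CPM) with both groups of the Q20 line (median 657 CPM). The 8 Q140 libraries (559 to 646 CPM) all lay under that median, and a fit against the Q20 line alone was not run. The values at 6 months, and the changes between ages, therefore hold for the pooled controls only. The change of the slope from 6 to 10 months was -0.18 ± 0.05 with an adjusted p of 0.05002 (edgeR, 84 libraries, 504 stem-loops, 1.98% passed), just outside the threshold of 0.05. The change of the Q140 difference between ages, added after the levels were seen, was -0.20 ± 0.08 (adjusted p = 0.209, 0.22% passed). A decline confined to 10 months was therefore not shown.

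Q92 and Q50 did not differ detectably from controls in mir-219a-2. At 10 months the log2 difference was -0.05 ± 0.07 in Q92 (95% interval -0.18 to 0.08) and -0.0055 ± 0.06 in Q50 (95% interval -0.12 to 0.11). No stem-loop passed in either comparison (0% of 447 and 0% of 437, with 36 and 32 at an unadjusted p under 0.05 in edgeR, and 0 in both by DESeq2). At 6 months it was 0.09 ± 0.06 in Q92 (adjusted p = 0.355, 11.8% of 431 passed) and -0.14 ± 0.06 in Q50 (adjusted p = 0.455; 0% of 431 passed in edgeR, with 42 at an unadjusted p under 0.05, and 4 by DESeq2). Q140 was lower than Q92 over both ages by -0.14 ± 0.04 (15 against 12 libraries), a difference with an adjusted p of 0.129. There 0% of 417 stem-loops passed in edgeR, with 57 at an unadjusted p under 0.05, and 9 passed in DESeq2, in which the adjusted p of mir-219a-2 was 0.0243.

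The other low values of mir-219a-2 were found in both genotypes of the Q50 line at 6 months. At 6 months all 16 libraries of the Q50 line, WT and Q50 together, lay under the median of the 16 libraries of the Q20 line (657 CPM), and 11 of 16 lay under every one of them. The ranges were 497 to 651 CPM in the Q50 line and 585 to 752 CPM in the Q20 line. At 10 months 5 of 16 libraries of the Q50 line lay under the median of the Q20 line (614 CPM), and the ranges were 562 to 699 and 517 to 732 CPM. This pattern was noticed in the levels and the comparisons by age were added afterwards.

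Among WT mice alone, the Q50 line differed from the Q20 line by -0.24 ± 0.07 on the log2 scale at 6 months (6 against 7 libraries, adjusted p = 0.167) and by 0.07 ± 0.05 at 10 months (7 against 8 libraries, adjusted p = 0.482). At 6 months 0% of 418 stem-loops passed in edgeR, where 48 had an unadjusted p under 0.05, and 8 passed in DESeq2. At 10 months 0.481% of 416 (2 stem-loops) passed in edgeR and 17 stem-loops in DESeq2. The change of the line difference between ages was 0.30 ± 0.08, with an adjusted p of 0.0416 over 432 stem-loops (edgeR, 28 libraries; 1.85% rose and 3.01% passed in either direction). The call depended on single libraries. It was kept without males 1, 3 or 4 of the Q20 line at 10 months, without male 2 of that line at 6 months, and without female 2 or male 2 of the Q50 line at 10 months. Leaving out any of the other 22 libraries of the 28 gave adjusted p from 0.0512 to 0.0951 with values from 0.27 to 0.34. Within L1 and L2 at 6 months the difference was -0.16 ± 0.07 and -0.33 ± 0.11, and within L2 and L3 at 10 months it was 0.17 ± 0.08 and 0.11 ± 0.07. Over both ages the WT lines differed by -0.08 ± 0.05 (13 against 15 libraries, adjusted p = 0.591, 0.477% passed).

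Littermate comparisons gave no difference for mir-219a-2. Q50 mice differed from WT mice of their line by 0.02 ± 0.04 over both ages (14 against 13 libraries, 95% interval -0.06 to 0.09), and Q20 mice from theirs by 0.04 ± 0.04 (15 against 15 libraries, 95% interval -0.05 to 0.12). No stem-loop passed in these comparisons in edgeR (0% of 416 and 0% of 419), where 14 and 39 had an unadjusted p under 0.05. DESeq2 called 0 and 2. The row did not differ detectably between ages or sexes either. Controls differed by 0.02 ± 0.04 between 10 and 6 months (23 against 20 libraries, 95% interval -0.07 to 0.10), where 45.6% of stem-loops passed. The L field was tied to age and was left out of this fit, and age cannot be told apart from library preparation. Males differed from females by -0.04 ± 0.02 (41 against 43 libraries, edgeR, adjusted p = 0.623, 1.66% passed).

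**Figure D3:**
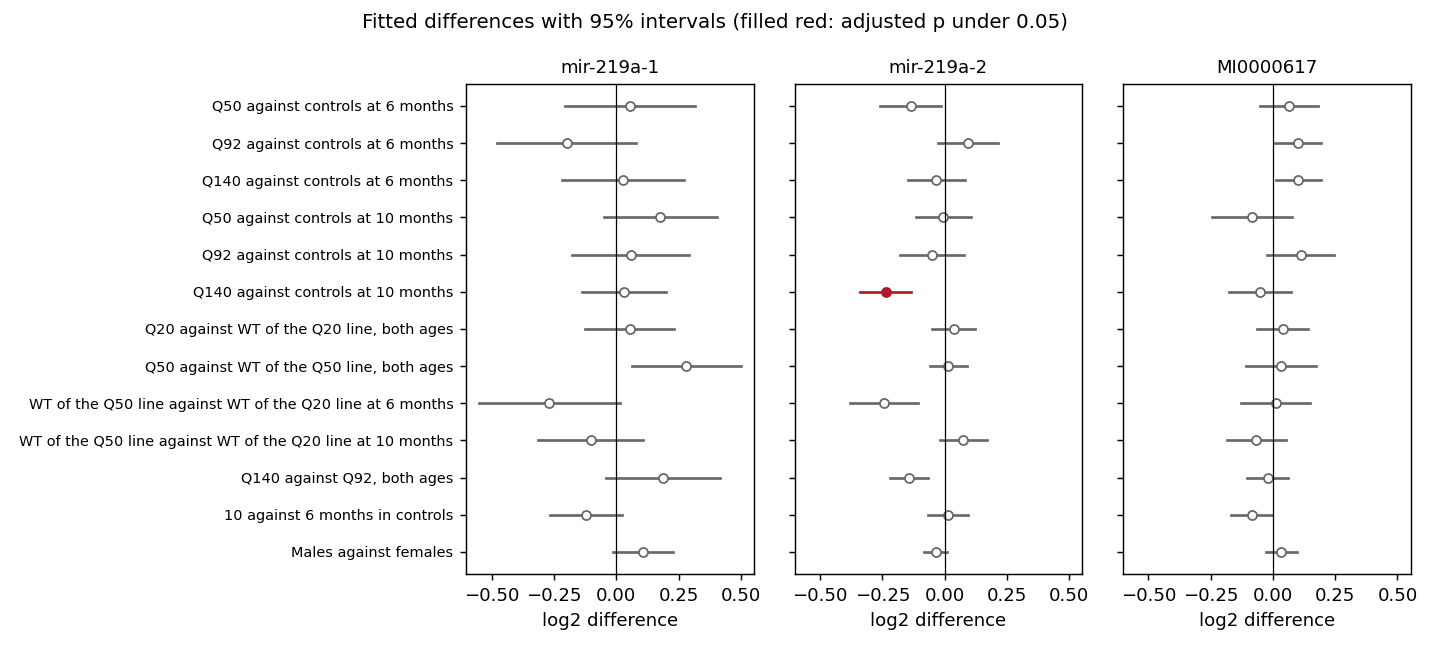
Fitted log2 differences (x axis) with 95% intervals for mir-219a-1, mir-219a-2 and MI0000617 in 13 comparisons (y axis), with red filled points for an adjusted p under 0.05. The 1 red point is mir-219a-2 in Q140 against controls at 10 months (-0.24).

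mir-219a-1 passed in no comparison. Its group means lay between 4.81 and 6.01 CPM, and its 96 values between 2.61 and 8.81 CPM. In Q140 mice at 10 months the lowest, median and highest were 4.65, 5.52 and 6.09 CPM, against 4.16, 5.24 and 6.17 CPM in 24 controls, so that the groups overlapped over nearly their whole range. The log2 difference was 0.03 ± 0.09 (95% interval -0.14 to 0.20). The lowest unadjusted p of this row was in Q50 against WT mice of the same line over both ages, with 0.28 ± 0.11 and an adjusted p of 0.976. The wide intervals mean that a difference of the size seen in mir-219a-2 was not detectable in several of these comparisons at this depth, for example in Q92 against controls at 6 months (-0.20 ± 0.14, 95% interval -0.48 to 0.08).

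MI0000617 passed in no comparison either. Its values lay between 698 and 1191 CPM. At 6 months the lowest, median and highest were 879, 949 and 1060.0 CPM in Q140 mice and 887, 960 and 1067 CPM in Q92 mice, against 745, 904 and 1049 CPM in 24 controls. Of the 8 libraries in each, 7 and 6 lay over the control median. The log2 difference was 0.10 ± 0.05 in both (adjusted p = 0.218 in Q140 and 0.173 in Q92), and the slope with CAG length was 0.08 ± 0.04 per 100 repeats (adjusted p = 0.135). At 10 months Q140 differed from controls by -0.05 ± 0.06 (95% interval -0.18 to 0.07) and the slope was -0.01 ± 0.05. Controls at 10 months differed from those at 6 months by -0.08 ± 0.04 (edgeR, adjusted p = 0.0989). Age cannot be told apart from library preparation in that fit.

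**Figure D4:**
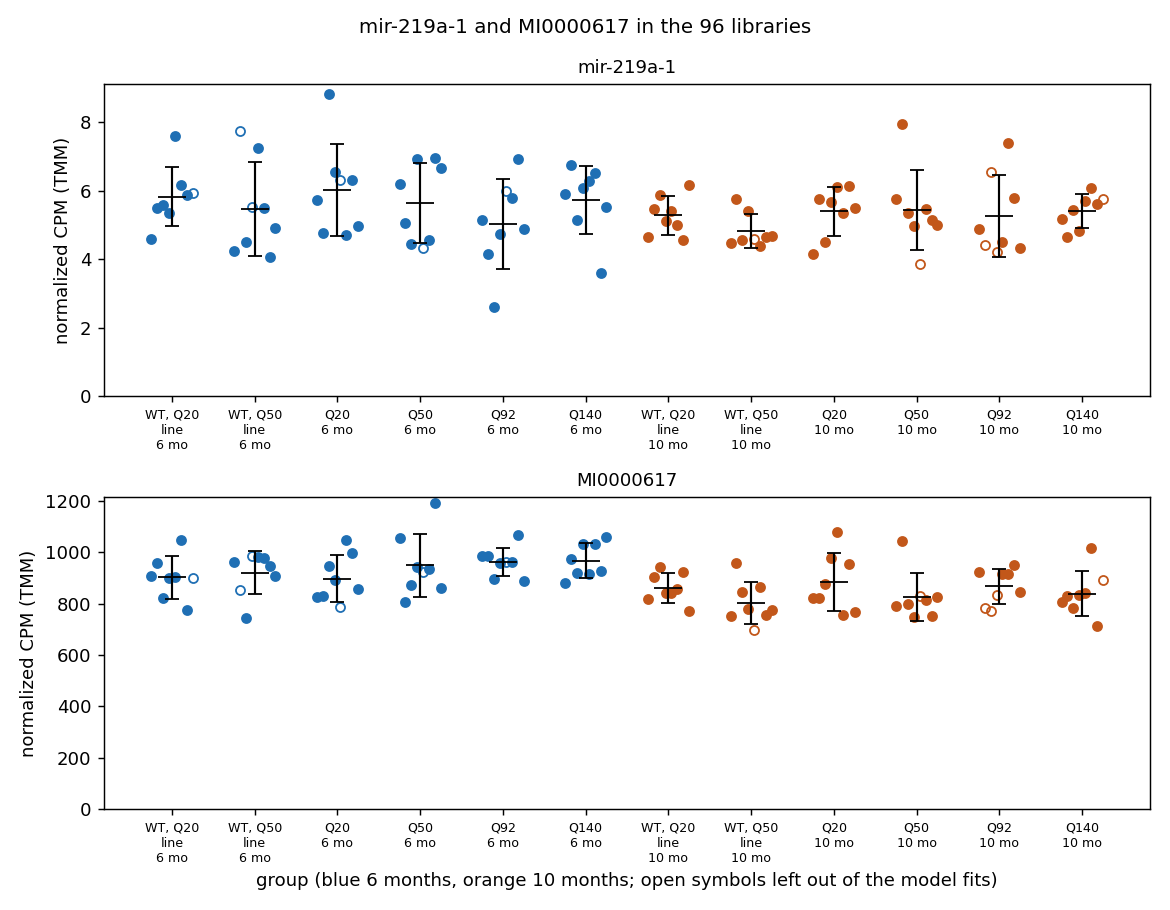
mir-219a-1 (upper panel) and MI0000617 (lower panel) in normalized CPM (y axes, from 0) in the 8 libraries of each of the 12 groups (x axis), with the mean and SD as black bars and the libraries left out of the fits as open symbols. Group means lie between 4.81 and 6.01 CPM for mir-219a-1 and between 803 and 966 CPM for MI0000617, and all groups overlap.

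Whether the rows moved together over libraries was examined with each group's mean of log2 CPM subtracted. All rows of a library share its depth and scaling. Over 96 libraries mir-219a-1 and mir-219a-2 had a Pearson r of 0.12 (permutation p = 0.262, adjusted 0.393) and a Spearman rho of 0.15 (permutation p = 0.150, adjusted 0.225). Reads were divided between these rows. The median spread of mir-219a-1 within groups (19.0%) was close to its counting error (17.0%), and low counts limit any r with this row. For mir-219a-2 and MI0000617 r was 0.09 (permutation p = 0.390, adjusted 0.501) and rho 0.09 (permutation p = 0.385, adjusted 0.496). mir-219a-1 and MI0000617 had an r of 0.30 (permutation p = 0.0036, adjusted 0.0328 over the 9 relations of pairs and ages) and a rho of 0.27 (permutation p = 0.0070, adjusted 0.0632). Without the 2 libraries farthest from the median of mir-219a-1 r was 0.28. Within ages r was 0.26 at 6 and 0.36 at 10 months (adjusted 0.214 and 0.0600), and the value at 10 months rested in part on 2 libraries, since without the 2 farthest it was 0.21 (and 0.14 in place of 0.42 within L3 at that age). Within age and L field it lay between 0.24 and 0.42 in 4 sets of 18 to 28 libraries, none of them with an adjusted p under 0.333. The relation was weak and its rank form did not pass the adjustment.

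The stem-loops whose pattern was most like each row were sought among 309 others with a mean of at least 10 CPM, by Spearman rho over the 96 libraries after subtraction of the group means. The closest to mir-219a-2 was MI0014027, with a rho of 0.67 (0.70 at 6 and 0.64 at 10 months), and the next were at 0.45 and 0.44. The row was fractional in 46 libraries, so that part of its counts was divided with other rows. Its implied length of 87 bases is that of Mir3065, opposite mir-338, but 14 RefSeq stem-loops have this length, and its name was not settled. Its level was 3079 CPM on average. Group means were subtracted before the choice, yet they come from the same 96 libraries. Errors shared by both rows within libraries enter both sets of means, so that likeness between these means is not independent support. Low values stood in the same places. At 6 months MI0014027 had 2817 ± 165 CPM (SD, n = 8) in WT mice of the Q50 line and 2785 ± 215 CPM in Q50 mice. It had 2910 ± 95.1 CPM in Q140 mice, close to these, and 3071 ± 221 CPM in WT littermates of Q20 mice. Q20 and Q92 mice had 3103 ± 238 and 3183 ± 101 CPM. At 10 months it had 2863 ± 176 CPM in Q140 mice, against 3214 ± 219 and 3473 ± 331 CPM in the WT groups of the Q20 and Q50 lines and 3158 ± 481 CPM (2765 to 4254) in Q20 mice, the nearest and most variable of the controls. Q50 and Q92 mice had 3291 ± 89.3 and 3084 ± 310 CPM at 10 months. The slope of MI0014027 with CAG length at 10 months was -0.18 ± 0.05 (adjusted p = 0.0307, edgeR), and its difference between Q140 and controls was -0.23 ± 0.07 (adjusted p = 0.0777, edgeR). Female 2 was the lowest Q140 library at 10 months in this row as well (-0.13 from the group mean, log2). Fits of MI0014027 without single libraries were not run.

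**Figure D5:**
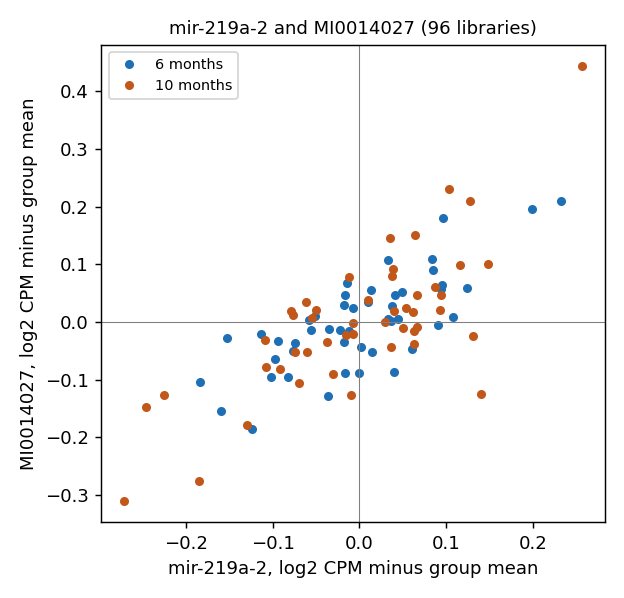
log2 CPM minus the group mean for mir-219a-2 (x axis) and MI0014027 (y axis), with 1 point for each of 96 libraries, blue at 6 months and orange at 10 months. The points of both ages rise together (rho 0.70 and 0.64).

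MI0000617 followed another set. Its closest stem-loops were MI0000259 and MI0021961, which held identical values, with a rho of 0.86, and the next stood at 0.85. The most opposed stem-loop had a rho of -0.70. mir-219a-1 had no close companion. Its highest rho was 0.33, with MI0000144, and its lowest was -0.41, while the lowest for mir-219a-2 was -0.37.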

How the data were processed

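Small RNA of mouse cortex was sequenced in 96 libraries. According to the study's methods, reads were aligned with STAR to the mm10 genome and counted with HTSeq, and the submitters' notes name CASAVA 1.8.2 (for the other tools, versions not given in the sources used). The authors deposited an estimated count per miRBase stem-loop, not normalized and often fractional, and an FPKM table, which the authors derived from the same counts and which served here for lengths and levels per length only. The study's methods do not state how fractional counts, or the division of reads between rows, arose from this counting. Groups came from the labels. The rows, lists and comparisons were chosen with earlier results of these data known.

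Estimated counts were rounded and tested with edgeR 4.0.16 (TMM, filterByExpr, quasi-likelihood test, sex and L field as covariates, Benjamini-Hochberg over all stem-loops, threshold 0.05) in R 4.3.3. The fit by age in controls took sex and control group as covariates, without the L field. The fit by sex took group and the L field within age. Libraries with a standardized connectivity under -5 after a variance-stabilizing transformation (DESeq2 1.42.0) were left out. Intervals of 95% are from the SE. Levels used log2(CPM + 1), and correlations used 100000 permutations (Python 3.11.15, scipy 1.17.1). The fits were tested on simulated data. Alternatives were DESeq2, its size factors, no filter, all libraries, no L field, WT mice alone as controls, summed mir-219a rows, a replicate block and leaving out libraries. The stem-loops named were the 3 rows and, by rho, the 3 most like and the 1 least like each, of which not all are printed. Lists of cell type markers fixed by name could not be matched, since the files do not pair accessions with names. The labels call the 8 libraries of a group separate replicates, and the study sequenced 1 mouse per library.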

Additional observations from a re-analysis of the deposited data

Results flagged for a closer look

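The difference of mir-219a-2 between WT mice of the Q50 and the Q20 line changed between ages, by 0.30 ± 0.08 on the log2 scale (edgeR, adjusted p = 0.0416), from -0.24 at 6 months to 0.07 at 10 months. Neither difference passed at its own age (edgeR, adjusted p = 0.167 and 0.482). Leaving out any 1 of 22 of the 28 libraries lost the call (edgeR, adjusted p from 0.0512 to 0.0951). The comparison was added after the levels were seen, and it was tested on the same libraries.

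Among the 36 sets of 8 libraries (3 rows in 12 groups), 4 held a library that stood apart from the other 7 by Dixon's criterion, which chance meets in about 1 in 20 groups. mir-219a-2 was 752 CPM in female 1 of the WT mice of the Q20 line at 6 months, where the next library had 659 CPM. mir-219a-1 was 8.81 CPM in female 3 of Q20 at 6 months, where the next had 6.54 CPM. In female 2 of Q50 at 10 months both mir-219a-1 (7.95 CPM, next 5.74 CPM) and MI0000617 (1043 CPM, next 831 CPM) stood above the rest, whereas mir-219a-2 had 657 CPM there, inside the range of its group. All 3 libraries had passed the screen.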

How the results depend on the processing

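The call of mir-219a-2 in Q140 against controls at 10 months held in 8 of 8 alternatives other than leaving out single libraries (-0.27 to -0.22, adjusted p from 0.0015 to 0.0309). Leaving out single libraries gave -0.25 to -0.18, and the call was lost without female 2 of Q140 (edgeR, adjusted p = 0.102). The slope with CAG length at 10 months held in all of these but the fit without Q140 (-0.079, adjusted p = 0.862). Leaving out single Q140 libraries gave -0.18 to -0.13, and this call too was lost without female 2 (edgeR, adjusted p = 0.111). The change of the slope between ages passed with DESeq2 size factors in edgeR (-0.19), in DESeq2 (-0.19), with all libraries kept (-0.18) and without the L field (-0.20). Q140 against Q92 passed in DESeq2 (-0.15) and with all libraries kept (-0.14). The change of the WT line difference did not pass without the low-count filter (0.29) or with the replicate block (0.30). Leaving out single libraries gave 0.27 to 0.34, and the call was lost for 22 of 28 of them. Replicate numbers did not pair the libraries (median correlation of same-numbered deviations -0.03 at 6 and 0.0067 at 10 months; 7 and 4 of 48 libraries correlated best with their own number), and the block changed no other call. The cause of these changes was not tested.

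Direction turned only in results that passed no threshold. With all libraries kept, mir-219a-1 gave -0.034 in Q50 and -0.0086 in Q140 at 6 months and -0.0085 for the WT line change, mir-219a-2 gave 0.0088 in Q50 at 10 months and -0.010 in Q50 against its WT littermates, and MI0000617 gave -0.0055 between WT lines at 6 months (-0.0033 with no filter). mir-219a-2 gave 0.029 in Q140 at 6 months with WT mice alone as controls and 0.019 in Q50 at 10 months without the L field. Slopes at 6 months without Q92 were 0.031 for mir-219a-1 and -0.017 for mir-219a-2, and without Q140 the slope of MI0000617 at 10 months was 0.093. The change of the Q140 difference of mir-219a-1 was -0.0067 with DESeq2 size factors, -0.017 in DESeq2 and -0.00035 with the replicate block. Leaving out single libraries gave, for mir-219a-1, -0.0065 to 0.099 (Q50) and -0.013 to 0.097 (Q140) at 6 months and -0.073 to 0.14 (Q92) and -0.0076 to 0.065 (Q140) at 10 months. It gave -0.043 to 0.015 (Q50) and -0.10 to 0.0092 (Q92) for mir-219a-2 at 10 months, and -0.042 to 0.017 for the slope of MI0000617 at 10 months.

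DESeq2 called more stem-loops than edgeR: 13 against 7 in Q140 and 8 against 5 for the slope at 10 months, 30 against 8 in Q140 at 6 months, 33 against 10 for the change of the slope, 22 against 13 for the change of the WT line difference, 12 against 2 between WT lines over both ages, 17 against 2 between them at 10 months, 7 against 1 for the change of the Q140 difference and 11 against 7 between sexes. Over all alternatives the counts ran from 3 to 22 (Q140) and from 0 to 9 (slope) at 10 months, from 0 to 33 for the change of the slope, from 1 to 22 for the change of the WT line difference, and from 0 to 8 in Q92 at 10 months (0 in the fit reported). The relation of mir-219a-1 and MI0000617 at 10 months (adjusted p = 0.0600) passed with DESeq2 size factors (0.0348) and without the libraries left out (0.0186); over both ages together no relation changed its call. The range of the group levels and the share of mir-219a-1 (0.882% without the libraries left out, 0.781% from FPKM) moved by less than 1 SD. Low counts limit mir-219a-1 most.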
